A study of Mus musculus with 8 samples.

Results

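Mitosis, the stage of the cell cycle in which copied chromosomes are condensed, attached to a spindle and pulled into daughter cells, was examined through 49 genes whose products carry it out. The genes were listed by their role, in 8 stages from entry into mitosis to cytokinesis, and not by any measured value. Earlier results of these data were known when the list was made. Each gene was followed through the probe set that carries its symbol alone and has the highest mean signal over the 8 arrays. Of the 49 genes, 48 had such a probe set, among 18194 genes of the array that did. The gene without one was Ccnb1, which encodes cyclin B1.

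The signals came from total RNA of F4/80+ macrophages sorted from mammary tumours of FVB mice at 80 days of age. All mice carried PyMT, the polyoma middle T oncogene that drives mammary tumours, and E2f3 f/f, an E2f3 gene in which both alleles are flanked by sites for Cre recombinase. The E2f3-deleted group (PyMT;Lys Cre;E2f3 f/f, 4 arrays, replicates A, E, F and H) also carried Lys Cre, in which Cre is made from the lysozyme gene of myeloid cells. The control group (PyMT;E2f3 f/f, 4 arrays, replicates B, C, D and G) had no Cre. No group carries Lys Cre without the E2f3 f/f alleles, so Cre and the loss of E2f3 cannot be told apart. Tumour cells and other cells that do not use the lysozyme gene would keep E2f3. The labels do not say that each array came from its own mouse, so the p-values measure the spread between these arrays, which may be technical.

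Entry into mitosis is driven by the kinase Cdk1 with B-type cyclins, helped by the Polo and Aurora kinases. Condensins then compact the chromosomes, the spindle forms between the centrosomes, and kinetochores built on the centromere protein Cenpa hold microtubules. The spindle checkpoint blocks the activator Cdc20 until every kinetochore is attached, after which securin and the B-type cyclins are destroyed, separase cuts the link between sister chromatids, and the cell divides. Many of these genes are transcribed late in the cell cycle. In resting cells their promoters are kept silent by the DREAM complex (MuvB with E2F4 and the pocket proteins Rbl1 or Rbl2) and in dividing cells they are turned on by MuvB with the transcription factors Mybl2 and Foxm1. MuvB binds DNA through Lin54 at a short element called CHR, often close to CCAAT boxes that bind the factor NF-Y. E2F3 itself is best known as an activator of genes needed for the start of DNA replication.

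All values are log2 signals as deposited, and a difference is always the E2f3-deleted mean minus the control mean. A difference of −0.29 therefore means an 18.2% lower signal. Signals of different probe sets are not measures of relative transcript abundance, so levels are compared between arrays and not between genes. The signal of E2f3 (probe set 1434564_at) cannot check the labels, since it is not stated which exons are removed or where the probes lie. It was 7.65, 7.54, 7.53 and 7.79 in E2f3-deleted arrays, against 7.66, 7.63, 7.83 and 7.58 in control arrays. The groups overlapped, with a difference of −0.046 (95% confidence interval −0.24 to 0.14, adjusted p = 0.812). Adgre1, which encodes the F4/80 antigen used for the sort, had 12.62, 12.66, 12.77 and 12.73 in E2f3-deleted arrays, against 12.97, 12.89, 12.78 and 12.86 in control arrays, and the E2f3-deleted arrays lay below every control array. Its difference was −0.18 (SE 0.0612, adjusted p = 0.275). The median signal of an array lay between 5.65 and 5.69. The number of arrays, 4 in each group, limits the precision of every value.

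All 48 mitosis genes had a lower mean signal in E2f3-deleted macrophages than in controls, but no single gene passed the test. Over all 10916 genes tested, 0% had an adjusted p under 0.05, and the smallest adjusted p among the mitosis genes was 0.212, that of Plk1. Among all genes tested 58.7% had a difference below 0. The differences of the mitosis genes ran between −0.51 and −0.06, which is 0.702 to 0.957 of the control signal, with a median of −0.29. The median over all genes tested was −0.03, and 3.47% of all genes lay at or under the median of the mitosis genes. All 48 genes passed the filter on low signal.

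At an unadjusted p under 0.05, 19 mitosis genes were lower, against 6.91% of all genes tested, and 0 were higher, against 7.27%. The 95% confidence interval excluded 0 for the same 19 genes and reached 0 or above for 29. In 3 of the 48 genes, Plk1, Aurka and Cenpa, every E2f3-deleted array lay below every control array, as in 4.23% of all genes tested. Of the lists described later, the same held for 4 of 10 macrophage markers and 7 of 66 other mitosis genes. It held for 1 of 32 S phase genes and 1 of 20 regulators of mitosis genes. Such a lack of overlap was thus not particular to the listed mitosis genes. A lower signal in a sorted bulk sample can come from fewer dividing cells or from less of the RNA in each cell, and these cannot be told apart.

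**Figure D1:**
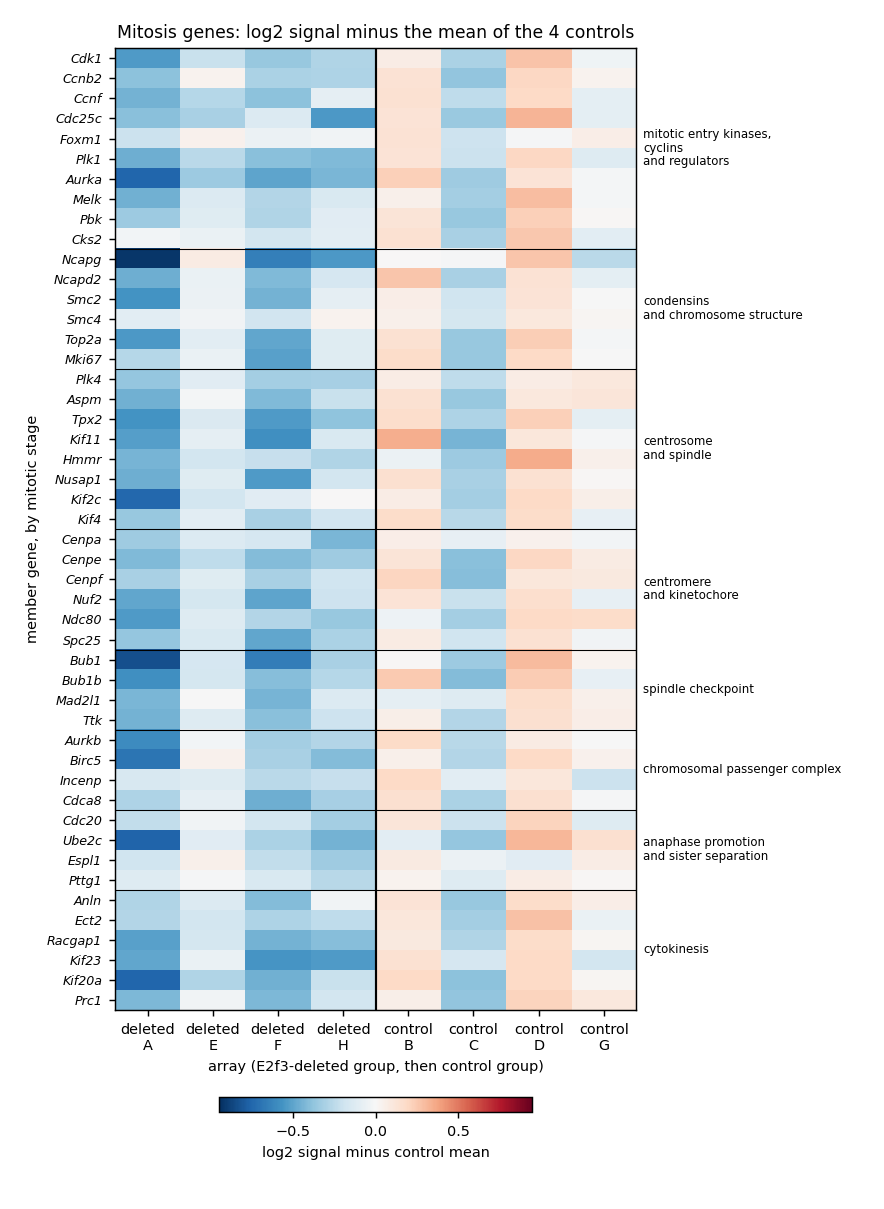
Log2 signal of the 48 mitosis genes (rows, grouped by stage) minus the mean of the 4 control arrays, on the 4 E2f3-deleted arrays (left) and the 4 control arrays (right). Blue is below and red above the control mean. E2f3-deleted A and F are blue in nearly every row, E2f3-deleted E is pale, control D is red, and control C is blue.

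The arrays of a group were not alike, and the mitosis genes varied together within each group. The median of the 48 genes, relative to the control mean, was −0.45 in E2f3-deleted A, −0.11 in E, −0.39 in F and −0.25 in H. On the control arrays it was 0.12 in B, −0.30 in C, 0.19 in D and −0.0018 in G. Control C thus lay below E2f3-deleted E and H, and the other controls lay above all E2f3-deleted arrays. E2f3-deleted A was the lowest of the 8 arrays in 28 genes and F in 11, while control D was the highest in 33 and B in 14. Control C was the lowest control in 44 genes and lay below E2f3-deleted E in 43. E2f3-deleted E was the highest E2f3-deleted array in 40 genes. All 48 genes were below the control mean on E2f3-deleted A and F, 46 on H and 43 on E. All 48 were below it on control C too.

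The first principal component of the deviations from the group means held 76.1% of their variance over the mitosis genes and 55.5% over all genes tested. The median SD within a group was 0.208 for the mitosis genes and 0.126 for all genes tested. Much of the spread between replicates was therefore shared by the whole set, and the 48 genes do not give 48 separate readings of the comparison. The number of genes lower at an unadjusted p under 0.05 followed single arrays. It was 40 without control C, where 5.66% of all genes were lower, and 28 without E2f3-deleted E (8.49%). It was 7 without E2f3-deleted A (4.76%), 7 without control B (4.31%), 7 without control D (6.2%), 9 without E2f3-deleted F (7.54%), 12 without control G (4.52%) and 17 without E2f3-deleted H (5.33%). Every gene kept a difference below 0 in each of these fits, and the median stayed between −0.39 and −0.24. In each of them 0 mitosis genes had an adjusted p under 0.05, although 0.55% of all genes did without E2f3-deleted E and 0.128% without E2f3-deleted H. The letters of the scan files differ from those of the titles. They run from A to D over the controls and from E to H over the E2f3-deleted arrays, so their order follows the groups. Only if they are read as the replicate letters of the titles would a grouping by them exchange control B and E2f3-deleted F. In that grouping the count was 0, against 3.18% of all genes, and the median was −0.046.

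Other measures differed between the groups beside the mitosis genes. All 12 tested markers of endothelial cells had a higher signal in E2f3-deleted arrays, with a median difference of 1.23. Of these, 10 of 12 were higher at an unadjusted p under 0.05, against 7.27% of all genes tested. The summed linear signal of these 12 endothelial markers lay between 2302 and 9887 in E2f3-deleted arrays and between 1530 and 3106 in control arrays. The endothelial median relative to the control mean was 1.99, 1.07, 2.01 and 0.046 on E2f3-deleted A, E, F and H. On E2f3-deleted H it was near the control mean, but there the medians of fibroblast and mast cell markers were highest, 1.74 and 3.99. Of 10 macrophage markers, 9 had a lower signal, with a median difference of −0.16 and a summed signal between 84286 and 91569 in E2f3-deleted arrays and between 90361 and 97434 in control arrays. The signal of the 3′ minus the 5′ probe set of Gapdh, a sign of RNA integrity, was 1.67 ± 0.167 in E2f3-deleted and 1.45 ± 0.0637 in control arrays (SD, n = 4 each). On single arrays it was 1.87, 1.48, 1.59 and 1.73 on E2f3-deleted A, E, F and H, against 1.53, 1.47, 1.39 and 1.42 on control B, C, D and G. It was highest on E2f3-deleted A, where the mitosis genes were lowest, and lowest on control D, where they were highest, while control C, with low mitosis genes, lay among the controls. The part of these measures in the lower mitosis signals was not tested.

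The promoters of the mitosis genes carried what the listing by role did not use. RefSeq promoter windows (assembly GRCm38.p6, the C57BL/6J reference, 250 bases before to 50 after the annotated start) were held for 41 of the 49 genes. None was used for Aurkb, Cdc25c, Foxm1, Incenp, Kif20a, Pbk, Smc4 and Tpx2. The CHR, searched as TTTGAA or TTCGAA on both strands, was found in 31 of 41 genes (75.6%). It was found in 54.8% of 62 other mitosis genes, in 21.4% of 28 S phase genes and in 21.7% of all 27025 genes with a window. The NF-Y box, searched as CCAAT on both strands, was found in 31 genes as well (75.6%). It was found in 62.9% of other mitosis genes, in 60.7% of S phase genes and in 41.1% of all genes with a window. Both elements stood in 1 window in 28 of the 41 genes (68.3%), in 37.1% of other mitosis genes, in 17.9% of S phase genes and in 8.61% of all. E2F-like letters (TTCCCGC or TTGGCGC or TTCGCGC or TTGCCGC, on both strands) were found in 8 of 41 mitosis genes (19.5%) and in 30.6% of other mitosis genes. They were found in 20 of 28 S phase genes (71.4%) and in 10.9% of all genes with a window. Among the 8855 genes tested on the arrays that have a window, CHR stood in 16.3%, the NF-Y box in 42.1% and E2F-like letters in 19.6%, so the share of mitosis genes with E2F-like letters was near that of tested genes. Among the mitosis genes an E2F-like match overlapped an NF-Y box in Ccnb1 and Ect2, and a CHR match overlapped an NF-Y box in Cdca8.

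The CHR matches gathered near the start of the gene. In 28 of 41 genes (68.3%) a match began between bases −40 and 50 from the start, a range chosen after the positions were seen. It did so in 37.1% of other mitosis genes, 7.14% of S phase genes and 5.48% of all genes with a window. Among genes tested on the arrays that have a window, the share was 3.94%. The 6 windows printed here, 5′ to 3′ on the strand of the gene, are examples from different stages described later. All 6 hold both elements, so they do not stand for all 41 genes, of which 28 hold both in 1 window. In Mki67, Ncapd2 and Kif2c every CHR match began before base −40. Capitals mark NF-Y boxes (CCAAT, or ATTGG on the other strand) and CHR matches (TTTGAA or TTCGAA). Plk1 (chr7:122159185-122159484, plus strand) has 1 NF-Y box and then 1 CHR. Aurka (chr2:172370521-172370820, minus strand), Spc25 (chr2:69206164-69206463, minus strand) and Bub1 (chr2:127831810-127832109, minus strand) have 2 NF-Y boxes and then 1 CHR. Ccnb2 (chr9:70421505-70421804, minus strand) has 3 NF-Y boxes between 2 CHR matches, and Racgap1 (chr15:99651607-99651906, minus strand) has 1 of each.
Plk1: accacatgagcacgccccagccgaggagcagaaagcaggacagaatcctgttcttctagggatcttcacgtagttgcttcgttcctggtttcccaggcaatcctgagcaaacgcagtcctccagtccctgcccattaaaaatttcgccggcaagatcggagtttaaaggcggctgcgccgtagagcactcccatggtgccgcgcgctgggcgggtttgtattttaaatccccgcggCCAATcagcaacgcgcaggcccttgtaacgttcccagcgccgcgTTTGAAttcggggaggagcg
Aurka: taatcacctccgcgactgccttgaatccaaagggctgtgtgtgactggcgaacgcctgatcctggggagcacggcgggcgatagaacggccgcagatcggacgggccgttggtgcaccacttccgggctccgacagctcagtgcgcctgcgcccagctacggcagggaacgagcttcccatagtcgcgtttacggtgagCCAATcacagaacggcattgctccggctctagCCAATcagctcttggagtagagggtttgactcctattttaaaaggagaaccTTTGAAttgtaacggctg
Ccnb2: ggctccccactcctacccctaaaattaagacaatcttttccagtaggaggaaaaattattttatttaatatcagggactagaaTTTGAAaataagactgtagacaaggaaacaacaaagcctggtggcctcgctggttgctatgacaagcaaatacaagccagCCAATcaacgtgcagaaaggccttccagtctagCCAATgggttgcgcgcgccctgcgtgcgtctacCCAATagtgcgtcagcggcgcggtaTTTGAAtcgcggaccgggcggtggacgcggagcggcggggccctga
Spc25: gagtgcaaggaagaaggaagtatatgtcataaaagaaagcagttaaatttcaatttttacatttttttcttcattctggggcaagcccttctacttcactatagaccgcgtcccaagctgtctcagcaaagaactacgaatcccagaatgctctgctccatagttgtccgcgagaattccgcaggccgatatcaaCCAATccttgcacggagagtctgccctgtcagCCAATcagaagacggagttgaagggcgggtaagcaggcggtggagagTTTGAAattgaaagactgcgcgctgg
Bub1: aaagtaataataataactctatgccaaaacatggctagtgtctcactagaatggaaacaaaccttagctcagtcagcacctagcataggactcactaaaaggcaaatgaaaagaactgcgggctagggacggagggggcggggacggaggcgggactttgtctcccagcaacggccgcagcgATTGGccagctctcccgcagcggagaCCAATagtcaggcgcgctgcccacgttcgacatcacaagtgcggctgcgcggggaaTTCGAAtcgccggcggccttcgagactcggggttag
Racgap1: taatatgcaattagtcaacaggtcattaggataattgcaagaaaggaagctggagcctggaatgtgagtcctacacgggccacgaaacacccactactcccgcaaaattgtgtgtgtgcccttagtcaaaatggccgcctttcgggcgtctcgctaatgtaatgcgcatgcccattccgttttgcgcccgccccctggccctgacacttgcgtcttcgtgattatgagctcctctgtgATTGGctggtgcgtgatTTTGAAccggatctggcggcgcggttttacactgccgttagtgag

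**Figure D2:**
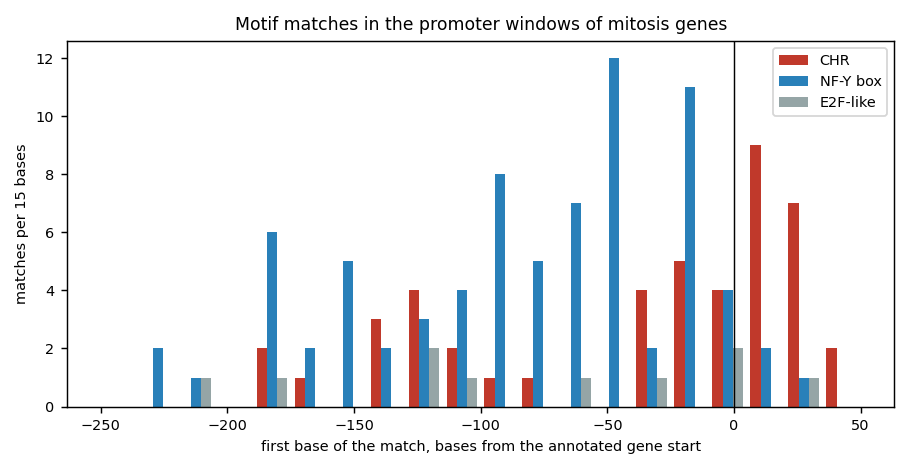
Number of matches to CHR, NF-Y box and E2F-like letters in the promoter windows of 41 mitosis genes (vertical axis, per bin) by the distance of the match's first base from the annotated gene start (horizontal axis, bases). Genes with several annotated starts, such as Ect2 and Prc1, give a window for each, so the same element can be counted at different positions. NF-Y boxes lie mostly before the start, and CHR matches gather around it and just after it.

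The differences of genes with and without a CHR match covered overlapping ranges. The 31 genes with a match and a signal had a median difference of −0.29 (range −0.51 to −0.18). The 9 genes without a match had a median of −0.28 (range −0.35 to −0.09). A match is a description of letters, and binding was not measured here.

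At mitotic entry, all 10 genes with a signal were lower in mean, 4 of them at an unadjusted p under 0.05, with a median difference of −0.28. Beside the counts of this and every later stage, 58.7% of all genes tested were lower in mean and 6.91% at that level. Plk1, a kinase needed from centrosome maturation to cytokinesis (probe set 1448191_at), had 6.98, 7.20, 7.05 and 7.03 in E2f3-deleted arrays, against 7.58, 7.24, 7.64 and 7.33 in control arrays. The highest E2f3-deleted array lay just below the lowest control, which was control C. The difference of Plk1 was −0.38 (SE 0.101, adjusted p = 0.212), or 0.767 of the control signal, with a 95% interval of −0.62 to −0.15. Aurka, the Aurora kinase of the centrosomes and spindle poles (probe set 1424511_at), had 7.80, 8.21, 8.05 and 8.12 in E2f3-deleted arrays, against 8.79, 8.22, 8.69 and 8.54 in control arrays. E2f3-deleted A stood lowest, and E2f3-deleted E and control C were almost level. Its difference of −0.51 (SE 0.137, adjusted p = 0.218) was among the largest of the set; it was singled out after its values were seen.

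Cdk1, the kinase that starts mitosis, averaged 9.10 ± 0.142 in E2f3-deleted and 9.45 ± 0.236 in control arrays (SD, n = 4 each), a difference of −0.35 (SE 0.126, adjusted p = 0.291). Its partner Ccnb2 (cyclin B2) differed by −0.24 (SE 0.143, adjusted p = 0.472). Ccnf, cyclin F, a substrate receptor of a ubiquitin ligase, differed by −0.30 (adjusted p = 0.317). Cdc25c, a phosphatase that activates Cdk1, differed by −0.35 (adjusted p = 0.355). The kinases Melk and Pbk, both abundant in dividing cells, differed by −0.25 and −0.21.

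Foxm1 and Cks2 had the smallest differences of this stage. Foxm1, a transcription factor of mitosis genes, averaged 6.64 ± 0.104 in E2f3-deleted and 6.70 ± 0.143 in control arrays (SD, n = 4 each), a difference of −0.064 (SE 0.0868, adjusted p = 0.75). Its 95% interval was −0.26 to 0.14. Cks2, a small subunit that binds Cdk1 and has the brightest probe set of this stage (1417457_at), had 10.19, 10.15, 10.03 and 10.11 in E2f3-deleted arrays, against 10.36, 9.90, 10.47 and 10.11 in control arrays. The E2f3-deleted arrays lay inside the range of the controls, with control C below all of them, and the difference was −0.09 (SE 0.12, adjusted p = 0.746).

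Among the genes of condensins and chromosome structure all 6 were lower in mean, 1 at an unadjusted p under 0.05, with a median of −0.28. Ncapg, a subunit of condensin I (probe set 1429172_a_at), had 6.76, 7.76, 7.03 and 7.14 in E2f3-deleted arrays, against 7.69, 7.67, 7.95 and 7.43 in control arrays. E2f3-deleted A, F and H lay below all controls, and E2f3-deleted E lay above 3 of them. The difference was −0.51 (SE 0.209, adjusted p = 0.329), and the SD of the E2f3-deleted arrays was 0.424. Mki67, which encodes the proliferation marker Ki-67 that coats mitotic chromosomes (probe set 1426817_at), had 11.66, 11.87, 11.42 and 11.82 in E2f3-deleted arrays, against 12.11, 11.57, 12.12 and 11.93 in control arrays. The groups overlapped through control C, which lay below 3 E2f3-deleted arrays. The difference of Mki67 was −0.24 (SE 0.146, adjusted p = 0.476).

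Top2a, the topoisomerase that untangles sister chromatids, averaged 10.34 ± 0.239 in E2f3-deleted and 10.65 ± 0.264 in control arrays (SD, n = 4 each), a difference of −0.31 (SE 0.159, adjusted p = 0.407). The condensin ATPase Smc2 differed by −0.29 and the condensin I subunit Ncapd2 by −0.28. Smc4, the partner of Smc2 in both condensins, differed by −0.068 (SE 0.0757, adjusted p = 0.692). The 95% intervals of Ncapg (−0.99 to −0.031) and Smc4 (−0.24 to 0.11) overlapped.

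In the centrosome and spindle stage all 8 genes were lower in mean, 3 at an unadjusted p under 0.05, with a median of −0.28. Plk4, the kinase that starts centriole duplication (probe set 1419838_s_at), had 8.77, 9.03, 8.81 and 8.82 in E2f3-deleted arrays, against 9.21, 8.90, 9.20 and 9.23 in control arrays. Control B, D and G were nearly level, and control C lay below them and below E2f3-deleted E. The difference of Plk4 was −0.28 (SE 0.0948, adjusted p = 0.276). Nusap1, a protein that bundles spindle microtubules (probe set 1416309_at), had 8.81, 9.16, 8.73 and 9.10 in E2f3-deleted arrays, against 9.43, 8.97, 9.42 and 9.28 in control arrays. Only control C lay within the E2f3-deleted range, and the difference was −0.32 (SE 0.136, adjusted p = 0.34).

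Tpx2, which activates Aurora A and nucleates spindle microtubules, had the largest difference of the stage, −0.41 (SE 0.14, adjusted p = 0.279). The motor Kif11, which pushes the spindle poles apart, differed by −0.33, and Kif2c, a kinesin that shortens microtubules, by −0.26. The chromosome-bound kinesin Kif4 differed by −0.24. The spindle pole proteins Hmmr and Aspm differed by −0.28 and −0.28. The 8 differences stayed between −0.41 and −0.24, a narrow range beside their standard errors.

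The centromere and kinetochore genes held the most low p-values, with 5 of 6 at an unadjusted p under 0.05 and a median of −0.33. Spc25, a subunit of the Ndc80 complex that binds microtubules (probe set 1424118_a_at), had 9.22, 9.44, 9.09 and 9.29 in E2f3-deleted arrays, against 9.66, 9.40, 9.73 and 9.56 in control arrays. Only E2f3-deleted E reached above control C. The difference of Spc25 was −0.33 (SE 0.0978, adjusted p = 0.245). Cenpa, the histone H3 variant that marks centromeres (probe set 1450842_a_at), had 9.56, 9.78, 9.74 and 9.47 in E2f3-deleted arrays, against 9.97, 9.83, 9.95 and 9.88 in control arrays. The groups did not overlap, and the controls lay close together. The difference of Cenpa was −0.27 (SE 0.0807, adjusted p = 0.248).

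The other subunits of the Ndc80 complex had like values, −0.34 for Nuf2 (adjusted p = 0.279) and −0.32 for Ndc80 (adjusted p = 0.337). Cenpe, a kinesin that carries chromosomes to the spindle equator, differed by −0.35 (SE 0.129, adjusted p = 0.294). Cenpf, a large protein of the outer kinetochore, differed by −0.23 (SE 0.131, adjusted p = 0.451).

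**Figure D3:**
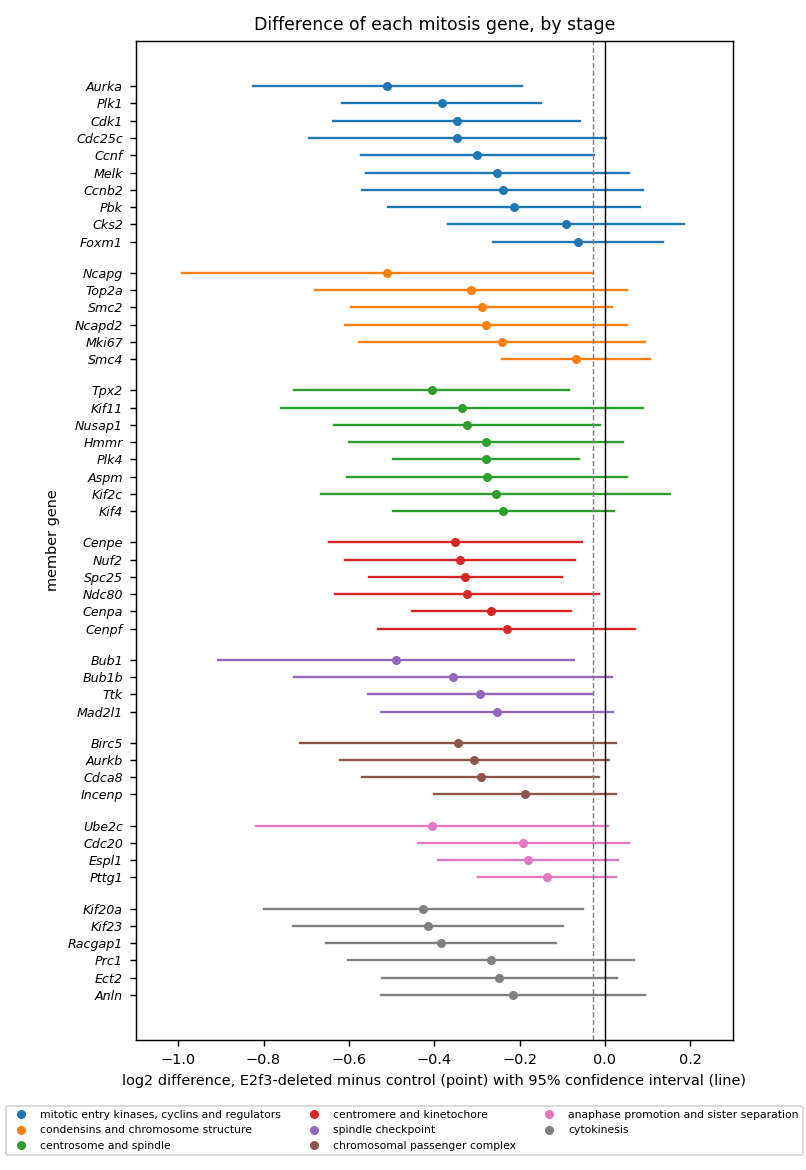
Difference of each mitosis gene (points, log2, E2f3-deleted minus control, horizontal axis) with its 95% confidence interval from limma (lines), by stage and in order of size. The dashed line is the median of all genes tested, −0.03. All points lie below 0, and the intervals of 29 genes reach 0 or above.

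All 4 spindle checkpoint genes were lower in mean, 2 at an unadjusted p under 0.05, with a median of −0.32. Bub1, a checkpoint kinase of the kinetochore (probe set 1424046_at), had 7.78, 8.45, 7.95 and 8.30 in E2f3-deleted arrays, against 8.62, 8.26, 8.91 and 8.64 in control arrays. E2f3-deleted A and F lay far below the controls, and E and H lay near control C. The difference of Bub1 was −0.49 (SE 0.181, adjusted p = 0.296). Mad2l1, which binds Cdc20 and keeps it inactive (probe set 1422460_at), had 9.71, 10.15, 9.71 and 10.02 in E2f3-deleted arrays, against 10.07, 10.02, 10.31 and 10.19 in control arrays. E2f3-deleted E lay among the controls and H was level with control C, and the difference was −0.25 (SE 0.118, adjusted p = 0.379). Bub1b (BubR1, part of the inhibitor of Cdc20) differed by −0.36 (adjusted p = 0.368). Ttk (the checkpoint kinase Mps1) differed by −0.29 (adjusted p = 0.313).

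The chromosomal passenger complex, which corrects faulty attachments and later guides cytokinesis, was lower in mean in all 4 subunits, 1 at an unadjusted p under 0.05, with a median of −0.30. Cdca8 (borealin, probe set 1436847_s_at) had 10.66, 10.87, 10.50 and 10.64 in E2f3-deleted arrays, against 11.11, 10.66, 11.11 and 10.95 in control arrays. Control B, D and G lay above every E2f3-deleted array and control C lay among them, with a difference of −0.29 (SE 0.121, adjusted p = 0.336). Incenp, the scaffold of the complex (probe set 1439436_x_at), had 11.24, 11.27, 11.13 and 11.17 in E2f3-deleted arrays, against 11.58, 11.29, 11.50 and 11.19 in control arrays. Here control G was the low control, and the difference was −0.19 (SE 0.093, adjusted p = 0.402). The kinase subunit Aurkb differed by −0.31 (adjusted p = 0.364), and Birc5 (survivin) by −0.34 (adjusted p = 0.38).

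In the chosen probe sets, the 4 genes of anaphase promotion and sister separation had the smallest median, −0.19, and 0 were at an unadjusted p under 0.05. Ube2c, the ubiquitin-conjugating enzyme of the anaphase-promoting complex (probe set 1452954_at), had 7.88, 8.53, 8.34 and 8.19 in E2f3-deleted arrays, against 8.54, 8.28, 8.96 and 8.80 in control arrays. E2f3-deleted A stood lowest, control C lay within the E2f3-deleted range, and control B was almost level with E2f3-deleted E. The difference of Ube2c was −0.40 (SE 0.18, adjusted p = 0.362). Pttg1 (securin, the inhibitor of separase, probe set 1438390_s_at) had 10.47, 10.57, 10.44 and 10.33 in E2f3-deleted arrays, against 10.62, 10.47, 10.66 and 10.60 in control arrays. The groups overlapped, and the difference was −0.13 (SE 0.0703, adjusted p = 0.415). Cdc20, which activates the anaphase-promoting complex, differed by −0.19 (adjusted p = 0.446). Espl1 (separase) differed by −0.18 (adjusted p = 0.408).

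All 6 cytokinesis genes were lower in mean, 3 at an unadjusted p under 0.05, with a median of −0.33. Racgap1, a subunit of centralspindlin, which organises the midzone and cleavage furrow (probe set 1451358_a_at), had 7.65, 8.005, 7.72 and 7.76 in E2f3-deleted arrays, against 8.26, 7.88, 8.34 and 8.19 in control arrays. Only E2f3-deleted E reached above control C, and the difference was −0.38 (SE 0.117, adjusted p = 0.253). Kif23, the motor subunit of centralspindlin, had nearly the same difference, −0.41 (SE 0.138, adjusted p = 0.272). Anln (anillin, which ties the contractile ring together, probe set 1433543_at) had 9.53, 9.68, 9.40 and 9.78 in E2f3-deleted arrays, against 9.94, 9.45, 9.99 and 9.88 in control arrays. Control C lay below 3 E2f3-deleted arrays, and the difference was −0.22 (SE 0.135, adjusted p = 0.486). The midzone kinesin Kif20a differed by −0.43 (adjusted p = 0.305), the midzone bundler Prc1 by −0.27 and the activator of RhoA at the furrow, Ect2, by −0.25.

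**Figure D4:**
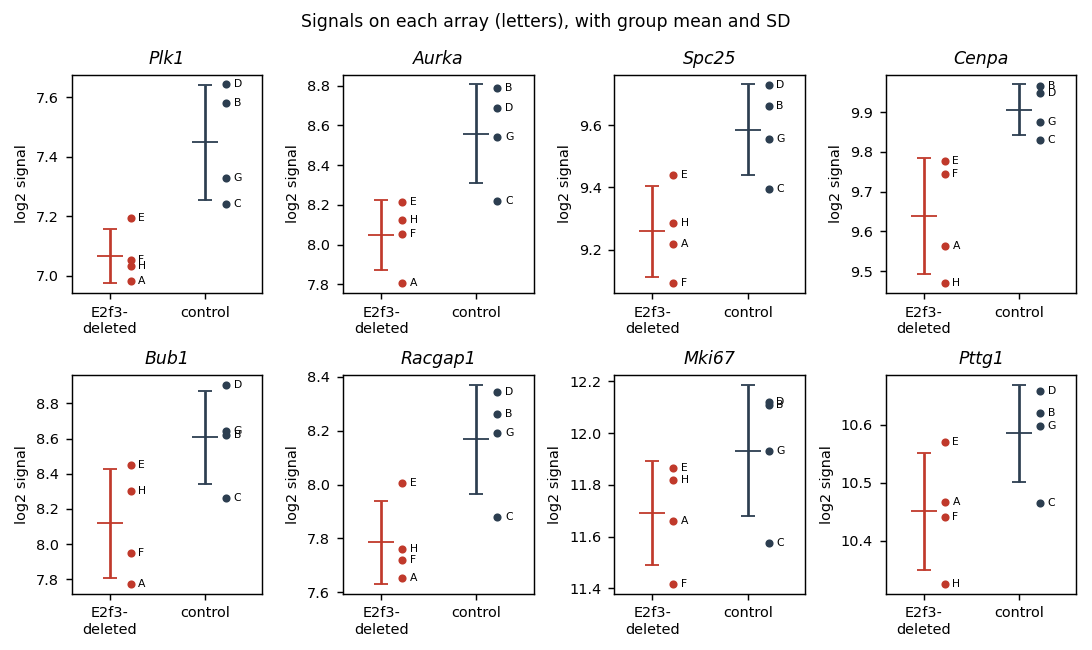
Log2 signal (vertical axis) of 8 mitosis genes on each array (points with replicate letters), E2f3-deleted left and control right, with the group mean and SD (n = 4 each). The axes do not start at 0. Plk1, Aurka and Cenpa do not overlap between the groups, and control C is the lowest control in each panel.

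Across stages, the median difference ran between −0.33 (kinetochore, cytokinesis) and −0.19 (anaphase), and 7 genes were more than 0.4 lower. These were Aurka, Ncapg, Bub1, Kif20a, Kif23, Tpx2 and Ube2c. After the median of the mitosis genes was subtracted on each array, Ncapg (−0.21), Aurka (−0.21) and Bub1 (−0.19) remained lowest. That step shifts every difference by the same amount, so it keeps their order and leaves genes on both sides of 0. The SD after it was 0.283 in E2f3-deleted and 0.239 in control arrays for Ncapg. It was 0.0805 and 0.0735 for Aurka, and 0.166 and 0.0964 for Bub1. In their chosen probe sets, Foxm1 (0.24), Smc4 (0.24), Cks2 (0.21) and Pttg1 (0.17) stood highest on that scale. Differences were larger, on balance, for dimmer probe sets. The 24 genes at or above the set's median signal of 8.44 had a median difference of −0.26, and the 24 below it had −0.33. Spearman's rho of the difference with the mean signal was 0.38 across the 48 genes, which share the same arrays.

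The other probe sets of these genes gave the same sign where they were bright enough to be tested. The 48 genes had 111 probe sets, of which 107 had a difference below 0. Of the 63 that were not chosen, 30 lay at or above the filter level of log2 5.998, and all 30 were lower in mean. The 4 with a difference above 0, for Cenpa (0.17), Incenp (0.026), Nusap1 (0.18) and Tpx2 (0.0026), lay below that level. With every probe set tested by itself, 40 of the 111 were lower at an unadjusted p under 0.05, against 5.7% of all probe sets with 1 symbol. Sizes varied within a gene. Foxm1 had −0.06 in the chosen probe set and −0.15, −0.35 and −0.07 in the others. Smc4 had −0.07 in the chosen one and −0.14 and −0.21 in the others. Pttg1 had −0.13 in the chosen one and −0.30 and −0.16 in the others. Incenp had −0.19 in the chosen one and −0.35, −0.32, −0.088 and 0.026 in the others.

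A wider list of 75 other mitosis genes gave smaller differences. Of the 66 that passed the filter, 62 were lower in mean, against 58.7% of all genes tested. At an unadjusted p under 0.05, 23 were lower, against 6.91% of all genes tested. The median was −0.18, and 0 had an adjusted p under 0.05. The 4 with a higher mean were Pkmyt1, an inhibitory kinase of Cdk1 (0.051), and Cdc27 (0.026), Cdc16 (0.049) and Anapc4 (0.058), subunits of the anaphase-promoting complex. They were named after their values were seen. The 6 genes with the smallest p all had a lower mean. Cenpu, of the inner kinetochore, differed by −0.30 (SE 0.0665, adjusted p = 0.186), and its arrays did not overlap. Gas2l3, a cytoskeletal linker of late mitosis, differed by −0.27 (SE 0.0711, adjusted p = 0.212), and the kinesin Kif18b by −0.39 (SE 0.105, adjusted p = 0.218). Ncaph, a further subunit of condensin I, differed by −0.23 (SE 0.0691, adjusted p = 0.244). The kinetochore genes Ska3 (−0.38) and Nsl1 (−0.26) lay below the filter level and have no adjusted p.

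The regulators that act on mitosis genes had differences on both sides of 0. Of 20 tested, 16 were lower and 4 higher in mean, with a median of −0.09. At an unadjusted p under 0.05, 2 were lower, against 6.91% of all genes tested, and 1 was higher, against 7.27%. These counts are near those shares. Lin52, a core subunit of MuvB, differed by −0.17 (SE 0.0501, adjusted p = 0.237). Its E2f3-deleted arrays lay below every control array, as in 4.23% of all genes tested. The MuvB subunits Lin54 (−0.10), Lin9 (−0.093), Lin37 (−0.024) and Rbbp4 (0.044) lay closer to 0. Mybl2 (−0.032), which turns MuvB into an activator, lay below the filter level.

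Among the E2F family, E2f1, an activator, differed by −0.23 (SE 0.0856, adjusted p = 0.296). E2f2, also an activator, differed by −0.22, and the repressors E2f8 and E2f7 by −0.31 and −0.16. E2f4, E2f5 and E2f6 differed by −0.10, −0.0097 and −0.067. Of the E2F partners, Tfdp2 differed by 0.27 (SE 0.0816, adjusted p = 0.244) and Tfdp1 by −0.18. Rb1, the retinoblastoma protein that holds back activator E2Fs, differed by 0.25 (SE 0.123, adjusted p = 0.394), and its relatives Rbl1 and Rbl2 by −0.13 and −0.037. The inhibitors of cyclin-dependent kinases Cdkn1b and Cdkn1a differed by 0.12 and −0.092.

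S phase genes, which copy DNA earlier in the cycle, followed the same arrays. All 32 tested were lower in mean, against 58.7% of all genes tested, with a median of −0.23. At an unadjusted p under 0.05, 11 were lower, against 6.91% of all genes tested. Their median relative to the control mean was −0.36, −0.034, −0.29 and −0.20 on E2f3-deleted A, E, F and H. It was 0.040, −0.21, 0.17 and −0.012 on control B, C, D and G, so control C was again the low control and E2f3-deleted E the high E2f3-deleted array. The first component held 73.9% of the variance within groups for S phase genes and 55.8% for the other mitosis genes. These lists share the arrays of the mitosis genes, and the differences between lists were not tested.

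**Figure D5:**
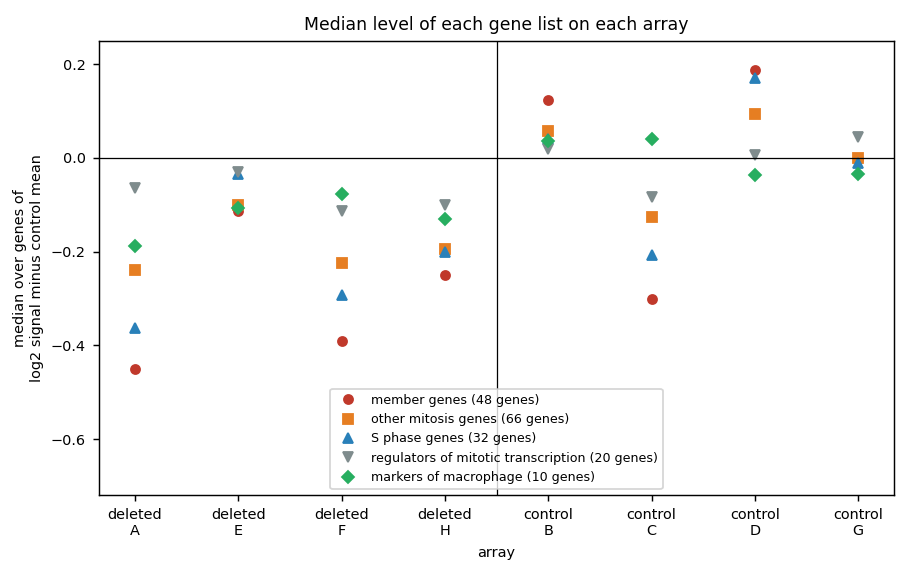
Median over the genes of each list (symbols) of log2 signal minus the control mean (vertical axis), on the 4 E2f3-deleted arrays (left) and the 4 control arrays (right). Of the 5 lists drawn, the 48 mitosis genes span the widest range, between −0.45 on E2f3-deleted A and 0.19 on control D, and S phase genes follow the same order on the E2f3-deleted arrays.

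Markers of further cell types were counted for the same arrays. Of all genes tested, 7.27% were higher at an unadjusted p under 0.05. All 10 fibroblast markers had a higher mean in E2f3-deleted arrays, 1 at that level, with a median of 0.70. The 13 epithelial markers (mammary or tumour) all had a higher mean, 2 at that level, with a median of 0.48. The summed linear signal of the fibroblast markers lay between 11514 and 50123 in E2f3-deleted arrays and between 8603 and 21880 in control arrays. That of the epithelial markers lay between 7811 and 18245 in E2f3-deleted arrays and between 7045 and 15327 in control arrays. The fibroblast median was 0.97, −0.45, −0.046 and 1.74 on E2f3-deleted A, E, F and H. Mast cell markers had a median of 1.31 (7 tested, all higher), and their median on E2f3-deleted A, E, F and H was 0.75, 1.23, −0.34 and 3.99, by far the highest on H. Neutrophil markers had a median of 0.24 (3 tested). The 3 tested T and NK cell markers had a median of −0.15 and the 2 tested B cell markers −1.04. For each of these lists 0 genes passed an adjusted p of 0.05, and their part in the lower mitosis signals was not tested.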

How the data were processed

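Total RNA of the sorted F4/80+ macrophages was extracted with Trizol and hybridised as biotinylated cRNA to Affymetrix arrays, per the labels' protocols. The log2 signals deposited by the authors cover 45101 probe sets and were computed with RMA, per the submitters' processing notes. Its version is not stated in those notes, nor is the set of arrays it was run on. RMA gives every array the same distribution of signals, which hides any change common to most genes. No value was changed before the tests.

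Symbols came from the platform annotation. Exactly 1 symbol was given to 34958 probe sets, of which 34754 matched a RefSeq gene table (GRCm38.p6) and 0 had a newer name. The brightest probe set stood for each of 18194 genes. Genes with a mean below the 40th percentile (log2 5.998) were dropped, and 10916 were tested. limma 3.58.1 (R 4.3.3; linear model with empirical Bayes, two-sided) compared the groups over all 8 arrays with no covariate, with Benjamini-Hochberg adjustment over the genes tested. The code was tested on simulated data. A simulated difference of −0.3 reached an adjusted p under 0.05 in 24% of genes and one of −0.5 in 64%. Of the genes without a simulated difference, 4 were called. The noise was drawn for each gene by itself, unlike the shared spread of the mitosis genes. The highest correlation of 2 arrays was 0.996, and each array was counted once.

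The genes, their stages and the other lists were chosen with earlier results of these data known. Values on every array are given for the gene of smallest p and that of highest mean in each stage, Mki67 and E2f3, with Aurka added after its values were seen. Of the other mitosis genes the 6 of smallest p are named, and of the regulators all with a probe set. Promoter windows are RefSeq's, for the C57BL/6J reference and not FVB. Alternatives covered the choice of probe set, filter, normalization, prior, array weights, each array left out, and the grouping by scan file letter.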

Additional observations from a re-analysis of the deposited data

Results flagged for a closer look

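In 3 of 96 groups of 4 arrays (3.12%, where chance gives about 5%) an array stood far from the other 3 of its group. The 48 genes share the same arrays and varied together, so the 96 groups are not separate and the 5% is only a rough guide. Plk4, the kinase of centriole duplication, had a signal of 8.90 in control C, and the other controls lay between 9.20 and 9.23. Aspm, a spindle pole protein, had 7.77 in control C, and the other controls lay between 8.23 and 8.27. Kif23, the motor of centralspindlin, had 8.28 in E2f3-deleted E, and the other E2f3-deleted arrays lay between 7.78 and 7.84. These are the arrays on which most mitosis genes departed from their group, with control C the lowest control in 44 of 48 genes and E2f3-deleted E the highest of its group in 40.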

How the results depend on the processing

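Each of the 48 mitosis genes that was tested kept a difference below 0 under every alternative but the grouping by scan file letter. This counts the chosen probe set of a gene or the mean of its probe sets. Filters, prior and the cut-off on adjusted p leave a difference unchanged, so its sign was fixed there. Of all 111 probe sets tested by themselves, 4 had a difference above 0. Of the genes, 0 passed an adjusted p of 0.05 under any alternative or of 0.1 in the reported fit. The median difference of −0.29 ran between −0.39 and −0.24 when each array was left out in turn, and the count of 19 genes at an unadjusted p under 0.05 between 7 and 40. That count was 29 with array weights and 40 of 111 when every probe set was tested by itself. With the arrays grouped by scan file letter, read as a replicate letter of the titles, control B and E2f3-deleted F exchange groups. The count was then 0, the median was −0.046 and 34 of 48 genes were lower in mean. In that grouping 14 genes turned to a difference above 0: Anln 0.055, Aspm 0.0056, Cdca8 0.017, Cenpf 0.024, Cks2 0.071, Foxm1 0.033, Incenp 0.038, Kif11 0.13, Kif4 0.0024, Mki67 0.10, Ncapd2 0.065, Nusap1 0.022, Smc4 0.044 and Top2a 0.0062. The titles and genotypes give the groups used in the text, and the cause of the change was not tested beyond the exchange itself. The filter at the 60th percentile left 33 of the genes and the mean of the probe sets of a gene 45. No paired analysis was possible because the replicate letters of the groups are not shared. Signals near background and the number of arrays limit the precision.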
